A study of Caenorhabditis elegans with 12 samples.

Results

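The genes described here act in macroautophagy, and they were taken from a list of 31 Caenorhabditis elegans names covering the initiation, conjugation, cargo and lysosome steps. Rows of the count table were matched to these names through WormBase identifiers, without use of any measured level. Of the 31 names, 30 had a row among the 46739 rows of the table, and all 30 passed the filter on low counts that left 15764 genes. The remaining name, atg-11, had no entry in the name tables and was not analysed under that name. It may be another name of epg-7, which is among the 30.

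Whole worms of 4 genotypes were sequenced for RNA at day 2 of age. A triple mutant is labelled spr-4;spr-3;daf-2, a single mutant is labelled daf-2, a spr double mutant is labelled spr-4;spr-3, and N2 is the standard laboratory wild type. The labels name no alleles of daf-2, spr-3 or spr-4, so how much activity each mutant gene kept is not known from them, and no group received a drug or other agent. Each genotype had 3 samples of 100 worms, grown at 20 °C and collected 24 h past the last larval stage, L4. The labels call them biological replicates without naming separate cultures, so the p-values measure only the spread between these samples.

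In autophagy a kinase complex and a lipid kinase complex start a cup-shaped membrane, and a pair of ubiquitin-like conjugation systems attach LGG proteins to that membrane. Receptors then bring cargo to it, and the closed vesicle fuses with the lysosome, where its contents are degraded. daf-2 encodes the worm's insulin and insulin-like growth factor receptor. Its reduced function extends lifespan, and that extension is known to need autophagy genes such as bec-1. spr-3 and spr-4 encode zinc-finger proteins found as suppressors of a presenilin mutant and likened to the mammalian repressor REST.

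Library totals were 30837773 to 48894725 counts, and the autophagy genes had 94 to 23755 counts in a library. The spr-3 transcript averaged 16.4 ± 1.24 CPM (counts scaled to library size, with TMM factors) in the libraries labelled as triple mutant, 17.5 ± 1.44 in daf-2, 9.22 ± 0.779 in spr-4;spr-3 and 17.3 ± 1.06 in N2 (SD, n = 3 each). It was lower in spr-4;spr-3 than in N2 (log2 fold change -0.91, edgeR adjusted p = 3.2e-08), but not called in the triple mutant label against daf-2 (-0.10, adjusted p = 0.34). The spr-4 transcript was lower with the spr label in both settings (-0.25 in spr-4;spr-3 against N2 and -0.21 in the triple mutant label against daf-2), and daf-2 itself was not called in daf-2 against N2 (-0.13, adjusted p = 0.098). Since the spr-3 level did not follow the label, these 3 libraries are named the triple-labelled libraries, and every direction that involves them is drawn from that label. Ribosomal RNA genes took 0.150% to 0.181% of counts in daf-2 libraries, against 0.0348% to 0.0460% in the other 9.

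Most of the called autophagy genes were higher in daf-2 worms than in N2, with the cargo genes epg-2 and sqst-1 and the genes rab-7, atg-2 and lgg-1 changing most. A gene is called where its adjusted p in edgeR's quasi-likelihood test, over all 15764 genes, was below 0.05. In daf-2 against N2, 18 of 30 were called (60%), close to the 54.3% of all genes called. Their direction was uneven, with 16 higher, against 27.4% of all genes, and 2 lower, against 26.9%. The median log2 fold change of the 30 was 0.19, against -0.0015 for all genes. In whole worms, fewer cells of a type and less RNA per cell cannot be told apart. The daf-2 and N2 libraries did not overlap for 20 of the 30, against 59.3% of all genes. Scaled by total counts alone, the split was 14 higher and 5 lower, where that of all genes went from 50.5% to 42.3% higher. With an absolute log2 fold change of at least 0.5 as well, 5 were called, against 29.2% of all genes, and all 5 were higher.

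The triple-labelled libraries had 11 of 30 genes called against daf-2 (36.7%, with 47.0% of all genes), 5 higher and 6 lower (26.1% and 20.9% of all genes). With RLE size factors atg-7, cup-5 and epg-4 were called lower too, for a split of 5 higher and 9 lower. Only epg-2 and rab-7, both lower, were called with a log2 fold change of 0.5 or more in size, against 20.8% of all genes. The median over the 30 was -0.05, against 0.02 for all genes, and the groups did not overlap for 13, against 52.7%. In the main fit the 7 genes that were not called in any of the 5 contrasts were atg-5, atg-9, atg-10, atg-13, atg-18, epg-4 and epg-5. Each was called in some alternative run. atg-18 was called lower in spr-4;spr-3 against N2 in 6, among them DESeq2 (adjusted p = 0.036). atg-13 was called higher in daf-2 against N2 in 6 runs that left out a library. epg-4 was called lower in triple-labelled against daf-2 in 8, among them DESeq2 (adjusted p = 0.042).

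In spr-4;spr-3 against N2, 13 of 30 were called (43.3%, with 46.5% of all genes), 9 higher and 4 lower (24.6% and 21.9% of all genes), with a median of 0.06 against 0.02. That split depended on the scaling: it was 7 higher and 6 lower with RLE size factors, and 6 higher and 10 lower with total counts, where the higher share of all called genes went from 53.0% to 34.96%. Past 0.5 in log2 were epg-2 and sqst-1, against 20.1% of all genes, and the groups did not overlap for 21 genes, against 57.5%. In the triple-labelled libraries against the spr double mutant, 9 of 30 were called (30%, with 49.3% of all genes), and all 9 were higher, against 25.8%. Lower calls were 0 with edgeR against 23.5% of all genes, with 2 members lower at an unadjusted p below 0.05, 2 called lower by DESeq2 and 0 by limma-voom. Past 0.5 were sqst-1, atg-2 and lgg-1 (22.5% of all genes), the median was 0.05 against 0.01, and the groups did not overlap for 15 (58.9% of all genes). RLE size factors gave 9 higher and 2 lower, and total counts 14 higher, where the higher share of all called genes went from 52.3% to 68.1%.

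**Figure D1:**
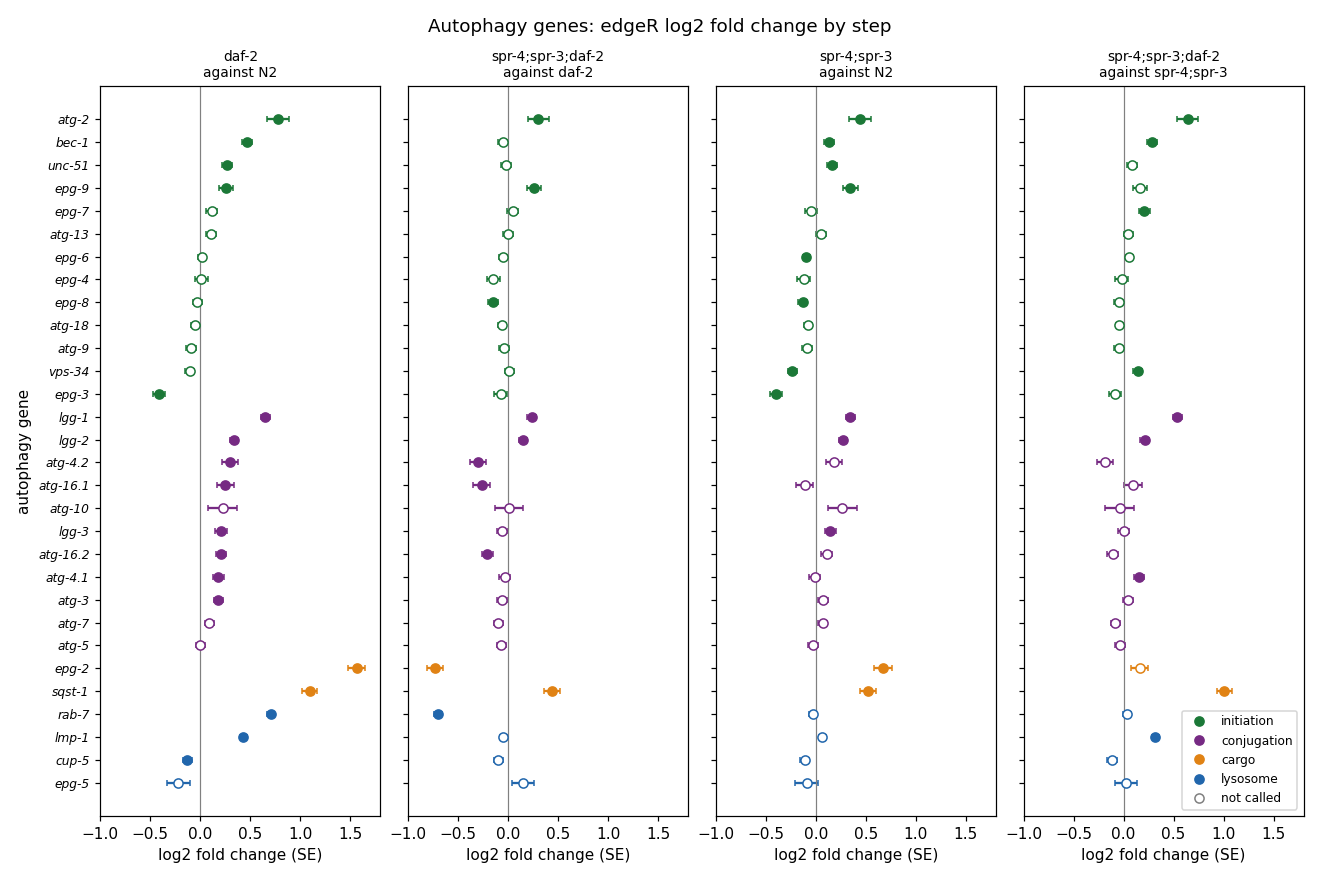
Log2 fold change of each of the 30 autophagy genes in 4 comparisons, grouped by step. Bars are the standard error, filled points are called and open points are not. In daf-2 against N2 most filled points lie right of 0, led by epg-2 at 1.56 and sqst-1 at 1.09, and in the triple-labelled libraries against daf-2 epg-2 and rab-7 lie farthest left.

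Of the 13 initiation genes, 5 were called in daf-2 against N2 (38.5%, with 54.3% of all genes), and their median log2 fold change was 0.01. The genes atg-2, bec-1, unc-51 and epg-9 were higher and epg-3 was lower, where 27.4% and 26.9% of all genes were. The gene atg-2 (WBGene00019748, chromosome X, 6806763 to 6817266 on the plus strand of WBcel235) encodes a lipid transfer protein that feeds the growing membrane. It had 128, 136 and 117 CPM in triple-labelled libraries, 94.3, 109 and 106.5 in daf-2, 72.5, 89.7 and 82.2 in spr-4;spr-3 and 55.0, 56.4 and 69.2 in N2. No pair of genotypes overlapped, and the levels ran from triple-labelled, the highest, through daf-2 and spr-4;spr-3 to N2. The difference was 0.78 ± 0.11 in daf-2 against N2 (log2, SE; edgeR adjusted p = 0.00014), 1.72-fold, and 0.64 ± 0.11 in triple-labelled against the spr double mutant (adjusted p = 0.00065). It was 0.44 ± 0.11 in spr-4;spr-3 against N2 (adjusted p = 0.0081). The smaller difference between triple-labelled and daf-2, 0.30 ± 0.10 (adjusted p = 0.038), was lost when any of 6 libraries was left out. Those were triple-labelled replicates 1 and 2 (0.093 and 0.11), daf-2 replicates 1, 2 and 3 (0.14, 0.056 and 0.074) and spr-4;spr-3 replicate 3 (0.052), each an edgeR adjusted p.

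bec-1 (WBGene00000247, chromosome IV, 5661141 to 5664425 on the minus strand) encodes the worm Beclin, a subunit of the lipid kinase complex that marks the site of the new membrane. Its levels were 51.4, 55.5 and 53.8 CPM in triple-labelled libraries, 55.9, 53.6 and 57.0 in daf-2, 41.3, 45.2 and 45.4 in spr-4;spr-3 and 38.8, 41.1 and 40.8 in N2. The triple-labelled and daf-2 libraries overlapped, and both lay above every library of the other genotypes. bec-1 was 1.38-fold higher in daf-2 than in N2 (0.47 ± 0.05 in log2, edgeR adjusted p = 4.4e-08) and 1.22-fold higher in triple-labelled libraries than in the spr double mutant (0.28 ± 0.05, adjusted p = 5.2e-05). Its difference between spr-4;spr-3 and N2, 0.13 ± 0.05 (edgeR adjusted p = 0.035), lost its call without spr-4;spr-3 replicate 2 or 3 (0.12 and 0.12), without N2 replicate 1, 2 or 3 (0.16, 0.060 and 0.059), and with total counts (0.56), RLE size factors (0.067), DESeq2 (0.097) or no filter on low counts (0.096).

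vps-34, the catalytic lipid kinase that BEC-1 binds, did not follow bec-1. It averaged 43.0 ± 0.42 CPM in triple-labelled libraries, 42.6 ± 1.73 in daf-2, 38.9 ± 0.83 in spr-4;spr-3 and 45.8 ± 0.45 in N2 (SD, n = 3 each). It was lower in spr-4;spr-3 than in N2 (-0.24 ± 0.04 in log2, edgeR adjusted p = 0.00021) and higher in triple-labelled libraries than in the spr double mutant (0.14 ± 0.04, adjusted p = 0.012). In daf-2 against N2 it was just outside the threshold (-0.10, adjusted p = 0.0505), and DESeq2, limma-voom, RLE size factors, total counts and a stricter filter on low counts each called it lower. Per kilobase of exon, the ratio of the bec-1 level to the vps-34 level was 2.62 ± 0.09 in triple-labelled libraries, 2.74 ± 0.02 in daf-2, 2.37 ± 0.08 in spr-4;spr-3 and 1.84 ± 0.07 in N2 (SD, n = 3 each). Every N2 ratio, 1.77 to 1.90, lay below every ratio of the other genotypes, 2.28 or more.

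epg-3, which encodes the worm counterpart of the endoplasmic reticulum protein VMP, was the largest decrease among the 30 genes in daf-2 against N2. It averaged 38.99 ± 1.73 CPM in triple-labelled libraries, 41.1 ± 4.27 in daf-2, 41.4 ± 1.804 in spr-4;spr-3 and 54.6 ± 2.26 in N2 (SD, n = 3 each). Its 3 mutant genotypes overlapped one another and lay below N2. The log2 difference was -0.41 ± 0.06 in daf-2 against N2 (edgeR adjusted p = 7.2e-06) and -0.40 ± 0.06 in spr-4;spr-3 against N2 (adjusted p = 2.2e-05), comparisons that share the N2 libraries. Between triple-labelled libraries and daf-2 it was -0.07 ± 0.06, not called.

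In the kinase complex, unc-51, the ULK kinase counterpart, was higher in daf-2 than in N2 (0.26 ± 0.05 in log2, edgeR adjusted p = 0.00017). epg-9, the counterpart of a subunit that stabilises atg-13's product, was higher by 0.26 ± 0.07 (adjusted p = 0.0053). epg-9 was also called higher in spr-4;spr-3 against N2 (0.35) and in triple-labelled libraries against daf-2 (0.26), and unc-51 in spr-4;spr-3 against N2 (0.16), a call lost without N2 replicate 2 (edgeR adjusted p = 0.060). Against the spr double mutant, triple-labelled libraries were 0.17 higher in epg-9, not called (edgeR adjusted p = 0.059). It was called there in 11 alternatives, among them the replicate block (0.0094), though not by DESeq2 or limma-voom. In the main fit epg-7, a scaffold of the complex, was called only in triple-labelled libraries against the spr double mutant (0.21). That fit called atg-13 in none of the 5 contrasts. Smaller calls in spr-4;spr-3 against N2 were epg-8, a subunit of the BEC-1 complex (-0.13), and epg-6, which binds the lipid that VPS-34 makes (-0.10). epg-8 lost its call without spr-4;spr-3 replicate 1 or 2 or N2 replicate 1 (edgeR adjusted p = 0.051, 0.094 and 0.084). epg-6 lost it without spr-4;spr-3 replicate 1, 2 or 3 or N2 replicate 1 (0.082, 0.12, 0.10 and 0.17). The epg-6 call was also lost with no filter on low counts (edgeR adjusted p = 0.079) or the replicate block (0.061). epg-8 was also lower in triple-labelled libraries than in daf-2 (-0.15), or -0.10 and not called without daf-2 replicate 3 (edgeR adjusted p = 0.075).

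**Figure D2:**
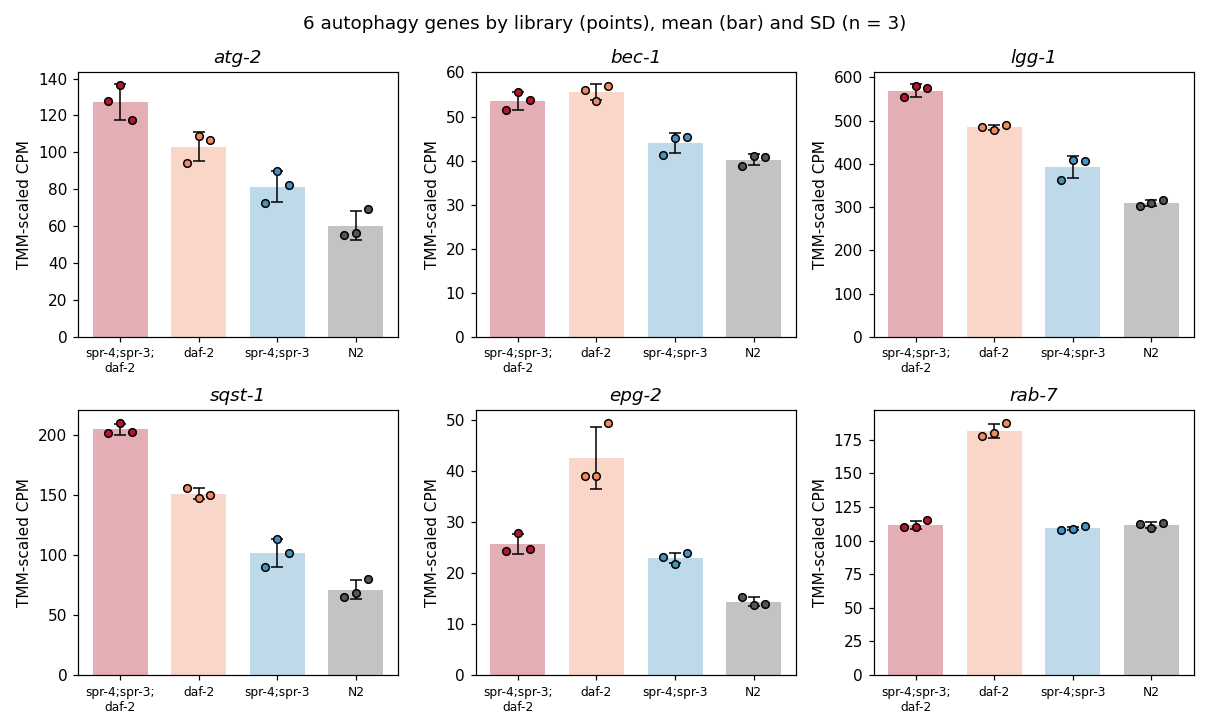
TMM-scaled CPM of 6 autophagy genes in each library. Points are libraries, bars the mean of 3 and error bars the SD. In atg-2, lgg-1 and sqst-1 the genotypes step down from triple-labelled to N2 without overlap, bec-1 is higher in both daf-2 genotypes, and epg-2 and rab-7 are highest in daf-2.

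The conjugation step had 8 of its 11 genes called in daf-2 against N2, and all 8 were higher, where 54.3% of all genes were called and 27.4% were higher. It includes the tags themselves. lgg-1 (WBGene00002980, chromosome II, 6346960 to 6347719 on the minus strand) encodes the ubiquitin-like protein, the counterpart of yeast Atg8, that is joined to lipid in the autophagosome membrane. It had 553, 579 and 576 CPM in triple-labelled libraries, 484, 478 and 490 in daf-2, 363, 408 and 406 in spr-4;spr-3 and 302, 309 and 317 in N2. As with atg-2, the 4 genotypes did not overlap and stood in the same order. lgg-1 was 1.57-fold higher in daf-2 than in N2 (0.65 ± 0.05 in log2, edgeR adjusted p = 1.1e-10) and 1.45-fold higher in triple-labelled libraries than in the spr double mutant (0.54 ± 0.05, adjusted p = 3.3e-09). The differences were 1.18-fold between triple-labelled and daf-2 (0.23 ± 0.05, adjusted p = 0.00027) and 1.27-fold between spr-4;spr-3 and N2 (0.34 ± 0.05, adjusted p = 3.1e-06).

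lgg-2, a second protein of the same kind, moved in the same directions by less. It averaged 208 ± 1.62 CPM in triple-labelled libraries, 187 ± 7.98 in daf-2, 180 ± 8.13 in spr-4;spr-3 and 149 ± 4.77 in N2 (SD, n = 3 each), and the daf-2 and spr-4;spr-3 libraries overlapped. Its log2 fold changes were 0.33 in daf-2 against N2, 0.15 in triple-labelled against daf-2, 0.27 in spr-4;spr-3 against N2 and 0.21 in triple-labelled against spr-4;spr-3, each called. Per kilobase of exon, the lgg-1 level was 4.02 ± 0.07 times that of lgg-2 in triple-labelled libraries, 3.80 ± 0.16 times in daf-2, 3.21 ± 0.06 times in spr-4;spr-3 and 3.05 ± 0.03 times in N2 (SD, n = 3 each). The lowest ratio in a library of either daf-2 genotype, 3.70, was above the highest in the other genotypes, 3.25.

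lgg-3, the ubiquitin-like partner of ATG-5, was higher in daf-2 than in N2 (0.21 in log2, edgeR adjusted p = 0.0034). In spr-4;spr-3 against N2 lgg-3 was 0.15 higher (adjusted p = 0.038), a call lost when any of 7 libraries was left out. Those were triple-labelled replicate 1 (0.053), daf-2 replicate 2 (0.051), spr-4;spr-3 replicates 1 and 3 (0.085 and 0.12) and N2 replicates 1, 2 and 3 (0.081, 0.099 and 0.11), each an edgeR adjusted p. It was also lost with RLE size factors (0.067), total counts (0.44), no filter on low counts (0.088) or DESeq2 (0.091). atg-3, whose product passes LGG proteins to lipid, was 0.18 higher in daf-2 than in N2 (edgeR adjusted p = 0.0028). In that comparison atg-7, whose product activates LGG proteins, differed by 0.09, atg-10 by 0.22 and atg-5 by 0.00, none of them called.

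The paired genes atg-4.1 and atg-4.2, cysteine proteases that process LGG proteins, and atg-16.1 and atg-16.2, partners of the ATG-5 conjugate, were all called higher in daf-2 than in N2, by 0.18, 0.29, 0.25 and 0.21 in log2. Against daf-2, the triple-labelled libraries were lower in atg-4.2 (-0.30, edgeR adjusted p = 0.0034), atg-16.1 (-0.26, adjusted p = 0.014) and atg-16.2 (-0.21, adjusted p = 0.00285), but atg-4.1 was not called (-0.03). atg-16.1 lost its call in daf-2 against N2 without daf-2 replicate 3 (0.091) or N2 replicate 1 (0.060), and in triple-labelled against daf-2 without daf-2 replicate 3 (0.091) or triple-labelled replicate 1 (0.052), each an edgeR adjusted p. atg-4.1 was higher in triple-labelled libraries than in the spr double mutant (0.16, edgeR adjusted p = 0.020), or 0.10 and not called without triple-labelled replicate 3 (0.14). Summed over the 11 genes, conjugation transcripts came to 1041 to 1073 CPM in triple-labelled libraries, 966 to 989 in daf-2, 825 to 874 in spr-4;spr-3 and 717 to 746 in N2. The sums did not overlap, and lgg-1 made up more of each than any other member. Of the 11 genes only lgg-1 and lgg-2 had their means in this order. In triple-labelled libraries against daf-2, 2 of the 11 were called higher and 3 lower, where 26.1% and 20.9% of all genes were.

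Both cargo genes were called in daf-2 against N2 and in spr-4;spr-3 against N2, where 54.3% and 46.5% of all genes were called. Both were higher each time, and they parted in the triple-labelled libraries. sqst-1 (WBGene00011737, chromosome IV, 12034282 to 12036891 on the plus strand) encodes sequestosome, a receptor that ties ubiquitinated protein to the autophagosome membrane and is itself degraded with it. It had 201, 210 and 202 CPM in triple-labelled libraries, 156, 147 and 150 in daf-2, 90.3, 113 and 101 in spr-4;spr-3 and 64.9, 68.2 and 79.8 in N2. No genotypes overlapped, and each triple-labelled library was above every other library. sqst-1 was 2.13-fold higher in daf-2 than in N2 (1.09 ± 0.08 in log2, edgeR adjusted p = 8.9e-08) and 2.01-fold higher in triple-labelled libraries than in the spr double mutant (1.009 ± 0.08, adjusted p = 2.65e-07). It was 1.35-fold higher in triple-labelled libraries than in daf-2 (0.44 ± 0.08, adjusted p = 0.00054) and 1.43-fold higher in spr-4;spr-3 than in N2 (0.52 ± 0.08, adjusted p = 0.00018).

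These counts measure transcript only, and neither the protein nor the flux through the pathway was measured. Per kilobase of exon, the sqst-1 level was 0.113 ± 0.0022 of the lgg-1 level in triple-labelled libraries, 0.0980 ± 0.0029 in daf-2, 0.0812 ± 0.0050 in spr-4;spr-3 and 0.0720 ± 0.0063 in N2 (SD, n = 3 each). The 12 neuron markers summed to 549 to 565 CPM in triple-labelled libraries, 468 to 489 in daf-2, 423 to 457 in spr-4;spr-3 and 397 to 406 in N2, the order also found for atg-2, lgg-1, lgg-2 and sqst-1. Of these markers 10 were called higher in triple-labelled against daf-2, where 26.1% of all genes were higher. In spr-4;spr-3 against N2, 5 were higher and 2 lower, where 24.6% and 21.9% of all genes were. The part of these markers in the result was not tested.

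epg-2 (WBGene00021468, chromosome I, 2300086 to 2302813 on the plus strand) encodes a nematode coiled-coil protein that links cargo aggregates to LGG-1 in embryos. Its levels were 24.4, 28.0 and 24.8 CPM in triple-labelled libraries, 38.99, 39.1 and 49.5 in daf-2, 23.1, 21.9 and 23.9 in spr-4;spr-3 and 15.4, 13.8 and 13.9 in N2. The daf-2 libraries lay above all others, replicate 3 farthest, and the N2 libraries below all others. epg-2 was 2.95-fold higher in daf-2 than in N2 (1.56 ± 0.09 in log2, edgeR adjusted p = 1.9e-11) and 1.66-fold lower in triple-labelled libraries than in daf-2 (-0.73 ± 0.08, adjusted p = 1.05e-06). In spr-4;spr-3 it was 1.59-fold higher than in N2 (0.67 ± 0.09, adjusted p = 7.0e-06). Against spr-4;spr-3 the triple-labelled libraries differed by 0.16 ± 0.09, not called (adjusted p = 0.13), but called without daf-2 replicate 3 (0.027) or without all daf-2 libraries (0.030).

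sepa-1, which encodes an aggregate receptor that EPG-2 acts with in embryos, was also called higher in daf-2 against N2 and lower in triple-labelled against daf-2. Its log2 fold change was 0.95 in daf-2 against N2 and -1.08 in triple-labelled against daf-2, and it was not called in the other comparisons (0.15 in spr-4;spr-3 against N2 and -0.27 in triple-labelled against spr-4;spr-3). Of 12 genes active in early embryos, a list chosen after its values were seen, 7 were measurable, and their levels were low. These 7 summed to 5.25 to 6.09 CPM in triple-labelled libraries, 6.85 to 10.4 in daf-2, 5.47 to 6.68 in spr-4;spr-3 and 4.25 to 5.99 in N2. In daf-2 against N2, 5 of the 7 were higher, against 27.4% of all genes. In triple-labelled against daf-2, 5 were lower and 1 higher, against 20.9% and 26.1% of all genes. In spr-4;spr-3 against N2, 1 was called, higher, where 46.5% of all genes were called. In triple-labelled against spr-4;spr-3, 0 were called with edgeR, where 49.3% of all genes were. The interaction, the daf-2 effect in spr double mutant worms minus that in N2, had 0 called with edgeR, against 28.7% of all genes. Its median over the 7 was -1.04. None of the 7 was at 0 in every library, and their part in the epg-2 and sepa-1 results was not tested. The exons of epg-2 overlap those of tpxl-1, on the opposite strand, by 78 bases, and the sources used here do not say how the counting used strand. tpxl-1 differed by -0.12 in daf-2 against N2 and by -0.07 in triple-labelled against daf-2, the second not called.

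At the lysosome step, rab-7 stood apart because it was higher in daf-2 alone. rab-7 (WBGene00004271, chromosome II, 11965523 to 11966931 on the minus strand) encodes the small GTPase that takes late endosomes and autophagosomes to the lysosome. It had 110, 110 and 115.2 CPM in triple-labelled libraries, 178, 180 and 188 in daf-2, 108, 109 and 111 in spr-4;spr-3 and 113, 109 and 113 in N2. The daf-2 libraries lay far above the other 9, which overlapped. rab-7 was 1.63-fold higher in daf-2 than in N2 (0.70 ± 0.04 in log2, edgeR adjusted p = 1.05e-12) and 1.62-fold lower in triple-labelled libraries than in daf-2 (-0.70 ± 0.04, adjusted p = 3.6e-12). It was not called in spr-4;spr-3 against N2 (-0.03) or in triple-labelled against the spr double mutant (0.04), although total counts called both (adjusted p = 0.017 for -0.12, and 0.040 for 0.11).

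The exons of rab-7 share 47 bases with those of W03C9.5 on the same strand, a neighbour looked at after the rab-7 values were seen. W03C9.5 had 21.8, 24.7 and 23.3 CPM in triple-labelled libraries, 44.9, 42.7 and 43.8 in daf-2, 27.7, 25.6 and 28.7 in spr-4;spr-3 and 28.2, 28.6 and 26.6 in N2. It too was highest in daf-2, with log2 fold changes of 0.66 in daf-2 against N2 and -0.91 in triple-labelled against daf-2. The sources used here do not say how reads in the shared bases were assigned. In all, 8 of the 30 genes share 8 to 134 exon bases with another gene, atg-13, epg-8, atg-4.1, atg-10, epg-2, epg-5 and cup-5 on the opposite strand and rab-7 on the same strand, so their counts are uncertain to that extent. The daf-2 libraries, where rab-7 and epg-2 were highest, were also those with the larger share of ribosomal RNA counts, 0.150% to 0.181%, and the part of this in the results was not tested.

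lmp-1, a LAMP-like protein of the lysosomal membrane, was higher in both daf-2 genotypes. It averaged 134 ± 2.59 CPM in triple-labelled libraries, 138 ± 0.59 in daf-2, 107 ± 3.29 in spr-4;spr-3 and 103 ± 0.88 in N2 (SD, n = 3 each). The log2 difference was 0.43 ± 0.04 in daf-2 against N2 (edgeR adjusted p = 1.4e-09) and 0.32 ± 0.04 in triple-labelled against the spr double mutant (adjusted p = 2.3e-07). cup-5, the worm mucolipin, a lysosomal ion channel, was slightly lower in daf-2 than in N2 (-0.13, edgeR adjusted p = 0.024). That call was lost without daf-2 replicate 1 (-0.06, adjusted p = 0.23) or 3 (0.064), without spr-4;spr-3 replicate 2 (0.055), or without N2 replicate 2 or 3 (0.11 and 0.086). A fit of only the compared groups also lost it (edgeR adjusted p = 0.056). epg-5, which encodes a tether between the autophagosome and the lysosome, was not called in any of the 5 contrasts, although without the filter on low counts it was called lower in daf-2 against N2 (-0.22, edgeR adjusted p = 0.013). In spr-4;spr-3 against N2 the 4 lysosome genes had 0 calls with edgeR and with limma-voom, where edgeR called 46.5% of all genes. cup-5 was close (-0.11, edgeR adjusted p = 0.055), with an unadjusted p below 0.05, and DESeq2 called it lower (adjusted p = 0.037). So did edgeR with RLE size factors (0.025), total counts (0.0020), no filter or a stricter filter on low counts (0.032 and 0.049), the replicate block (0.046) or only the compared groups (0.015), and without some single libraries.

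The daf-2 label could be compared in N2 and in spr double mutant worms, 2 comparisons with no library in common. Of the 30 genes, 22 had the same sign in both (73.3%, against 71.3% of all genes), and Pearson's r across the 30 log2 fold changes was 0.63, against 0.62 across all genes tested. Genes are not independent replicates. The 7 genes called higher in both were atg-2, bec-1, lgg-1, lgg-2, atg-4.1, sqst-1 and lmp-1, where 2770 of all 15764 genes were higher in both. Of the 30, the main edgeR fit called 0 lower in both and 0 in opposite directions, against 1975 and 369 of all genes. cup-5 just missed being lower in both (-0.11 in spr double mutant worms, edgeR adjusted p = 0.051). It was called lower there with RLE size factors (0.024), no filter on low counts (0.0498), the replicate block (0.048) or DESeq2 (0.035). These runs kept its lower call in N2 worms. vps-34 was called in opposite directions by DESeq2, limma-voom, RLE size factors, total counts and a stricter filter. The difference between the 2 daf-2 effects, the interaction, was called for 7 of 30 (23.3%, with 28.7% of all genes), 2 above 0 and 5 below (14.1% and 14.6% of all genes). The called difference was -1.40 ± 0.12 in log2 for epg-2 (edgeR adjusted p = 1.2e-07) and -0.67 ± 0.05 for rab-7 (adjusted p = 1.0e-08), the 2 past 0.5 (14.7% of all genes). It was -0.48 ± 0.11 for atg-4.2 (adjusted p = 0.0027), -0.31 ± 0.07 for atg-16.2 (adjusted p = 0.0032), 0.33 ± 0.09 for epg-3 (adjusted p = 0.0081) and 0.25 ± 0.06 for vps-34 (adjusted p = 0.0054). For sqst-1 (-0.08, adjusted p = 0.63), atg-2 (-0.14, 0.55) and lgg-1 (-0.11, 0.21) no difference was called. With total counts the split was 3 and 3, where all genes went from 49.2% to 77.5% above 0 and their median was 0.12 higher. Because spr-3 differed between triple-labelled and spr-4;spr-3 libraries (0.83 in log2), a difference in spr genotype cannot be told apart from the daf-2 effect in that comparison.

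**Figure D3:**
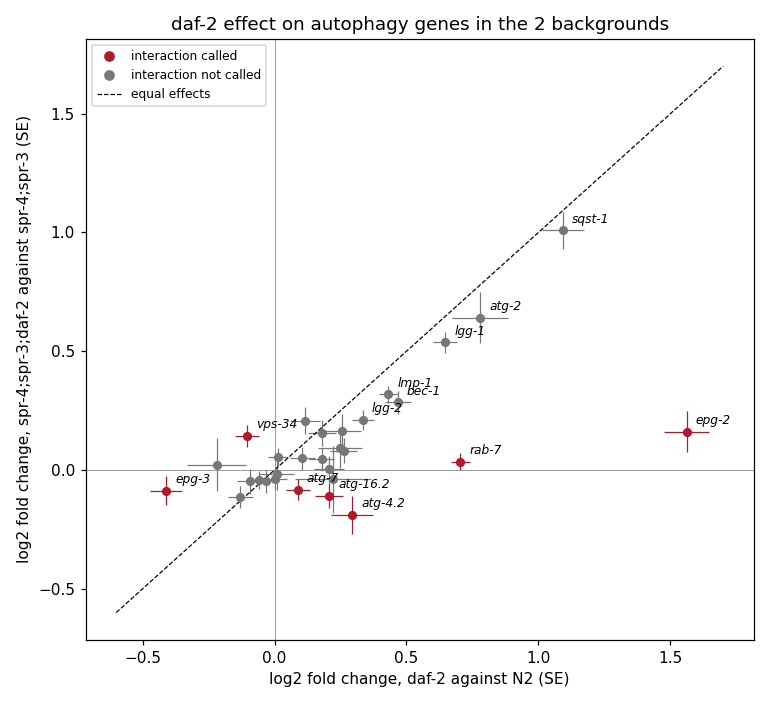
Log2 fold change of the 30 autophagy genes with the daf-2 label, in N2 worms on the horizontal axis and in spr double mutant worms on the vertical axis. Bars are standard errors and red marks a called interaction. sqst-1, atg-2 and lgg-1 lie near the line of equal effects, while epg-2 and rab-7 lie far right of it, at 0.16 and 0.04 on the vertical axis.

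Per kilobase of exon, a scale on which genes can be compared, lgg-1 was the most abundant of the 30, at 620 TMM-scaled CPM per kilobase over the 12 libraries (range 426 to 818). lgg-2 followed at 174, rab-7 at 162 and lmp-1 at 115.4. At the low end were atg-10, the conjugating enzyme for LGG-3, at 6.28 and epg-5 at 2.30. The 4 genes ordered from triple-labelled, through daf-2 and spr-4;spr-3, to N2 were atg-2, lgg-1, lgg-2 and sqst-1. Of all 30, 16 had their highest mean in daf-2, 7 in N2, 6 in triple-labelled libraries and 1 in spr-4;spr-3, though many neighbouring means differed by less than their spread. Summed over the 30 genes, the level was 2483 to 2551 CPM in triple-labelled libraries, 2407 to 2528 in daf-2, 2040 to 2165 in spr-4;spr-3 and 1949 to 2011 in N2. Both daf-2 genotypes lay above the others without overlap, and they overlapped each other. Such a sum weights abundant genes most. For the 13 initiation genes alone the sums of daf-2 (830 to 901 CPM) and N2 (817 to 832) overlapped.

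**Figure D4:**
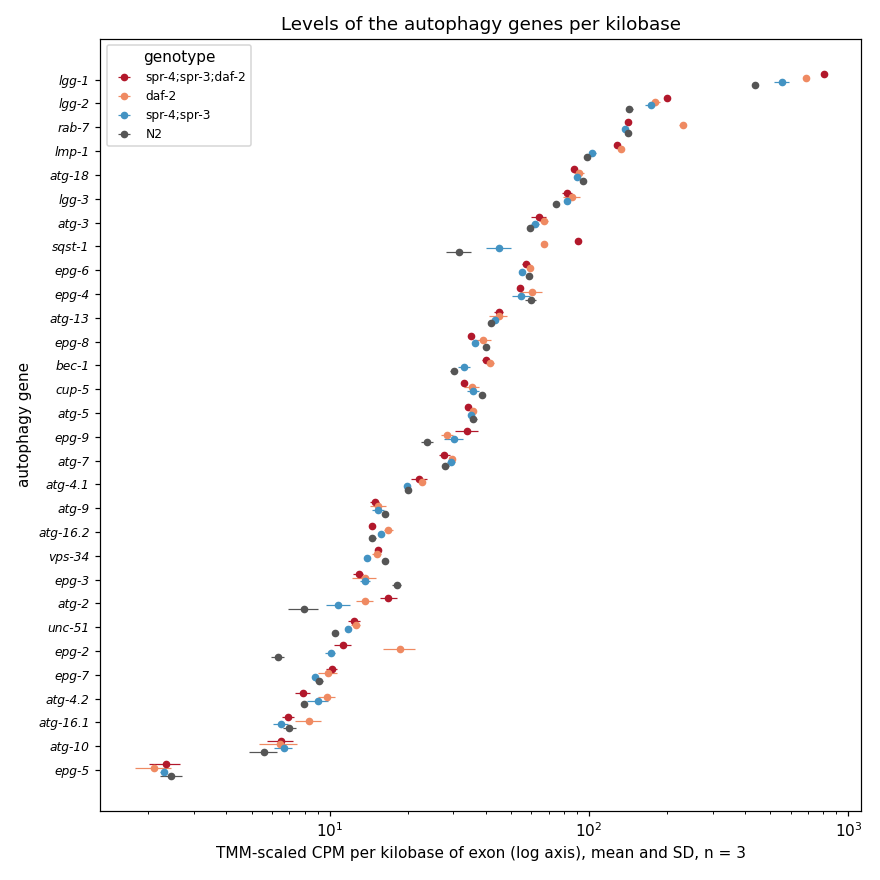
Mean level of each autophagy gene in TMM-scaled CPM per kilobase of exon, on a log axis, by genotype. Bars are the SD of 3 libraries. lgg-1 stands highest, at 620 over all libraries, and epg-5 lowest, at 2.30, and on the log axis the genotype means lie widest apart for epg-2 (highest over lowest 2.96), sqst-1 (2.88), atg-2 (2.11) and lgg-1 (1.84).

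Other genes of the pathway were counted in 5 lists, and no test compared these lists with the 30 genes. Among 15 upstream regulators, 11 were called in daf-2 against N2, 6 higher and 5 lower, where 54.3% of all genes were called, 27.4% higher and 26.9% lower. They were led by mxl-3 (0.80), a repressor that opposes HLH-30, aak-2 (0.35), a catalytic subunit of the energy-sensing kinase AMPK, and pha-4 (0.35), a forkhead factor. hlh-30, the TFEB counterpart that drives autophagy and lysosome genes, was higher by 0.13 (edgeR adjusted p = 0.012), and let-363, the TOR kinase that restrains autophagy, was lower (-0.17, adjusted p = 0.012). Both were picked after their values were seen. The 15 ran from -0.33 to 0.80, with a median of -0.02. In triple-labelled libraries against the spr double mutant, 5 of the 15 were called, against 49.3% of all genes. aak-2 and pha-4 were also higher there (0.25 and 0.60). mxl-3 was not (-0.01), and its interaction was called (-0.81, edgeR adjusted p = 5.4e-07). Of 8 other selective adaptors, 4 were higher and 1 lower in daf-2 against N2. They were led by sepa-1, the mitophagy receptor gene dct-1 (0.69) and allo-1 (0.36), whose product marks paternal organelles in the embryo.

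Most called genes of the V-ATPase, the proton pump that acidifies lysosomes, were lower. In daf-2 against N2, 15 of its 21 genes were called, 14 lower and 1 higher, with a median of -0.13 in log2, where 26.9% of all genes were lower. In triple-labelled libraries against the spr double mutant the counts were 15 lower and 1 higher, with the same median of -0.13, where 23.5% of all genes were lower. With total counts the second set shrank to 4 lower and 1 higher, and the first became 19 lower. The largest decreases in daf-2 against N2 were vha-6 (-0.60), the intestinal subunit, vha-3 (-0.40) and vha-11 (-0.26). The 10 intestine markers summed to 2219 to 2380 CPM in triple-labelled libraries, 1548 to 1778 in daf-2, 2565 to 2615 in spr-4;spr-3 and 2763 to 2935 in N2. In daf-2 against N2, 6 were lower and 2 higher, where 26.9% and 27.4% of all genes were. In triple-labelled libraries against the spr double mutant, 2 were lower and 3 higher, where 23.5% and 25.8% of all genes were. None of the 10 was at 0 in every library, and their part in the V-ATPase result was not tested. Of 14 genes for autophagosome and lysosome fusion, 7 were lower and 1 higher in daf-2 against N2, among them vamp-7 (-0.33), vps-18 (-0.29) and ykt-6 (-0.22).

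Of 17 lysosomal membrane and hydrolase genes, 8 were called in daf-2 against N2 (47.1%, with 54.3% of all genes). Of these, 4 were higher and 4 lower, where 27.4% and 26.9% of all genes were. The decreases were led by spin-4 (-0.83) and spin-1 (-0.53), members of the spinster transporter family, and nuc-1 (-0.58), a lysosomal DNase. nuc-1 was lower in each comparison, by -0.70 in triple-labelled against daf-2, -0.73 in spr-4;spr-3 against N2 and -0.55 in triple-labelled against spr-4;spr-3. In triple-labelled libraries against daf-2, 6 of the 8 adaptors and 5 of the 14 fusion genes were lower and 0 higher with edgeR, where 47.0% of all genes were called, 20.9% lower and 26.1% higher, although with total counts 1 fusion gene was higher.

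**Figure D5:**
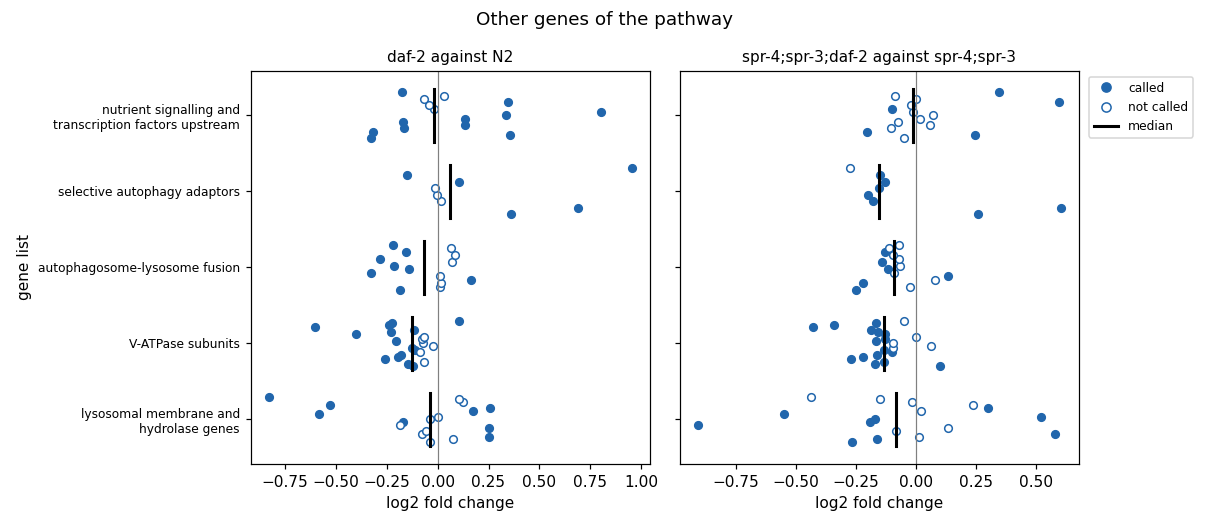
Log2 fold change of the other pathway genes in 5 lists, for daf-2 against N2 on the left and triple-labelled against spr-4;spr-3 on the right. Each point is a gene, filled where called, and the black line is the median of the list. The V-ATPase medians lie at -0.13 in both panels, and the selective adaptors reach from below 0 to 0.95 for sepa-1 in the left panel.

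Markers of other tissues also moved between genotypes. In daf-2 against N2, 9 of 12 germline, 10 of 12 sperm and 8 of 10 epidermis markers were lower, and 1 sperm marker was higher. Lower were also 6 of 10 intestine, 5 of 10 body wall muscle and 4 of 12 oocyte markers, with 2, 1 and 2 higher. Of 12 neuron markers, 5 were higher and 1 lower. Of all genes, 26.9% were lower and 27.4% higher. In triple-labelled libraries against the spr double mutant, 12 of 12 oocyte, 10 of 12 germline and 7 of 10 epidermis markers were lower. There 1 germline marker and 10 of 12 neuron markers were higher. Lower were also 6 of 12 sperm, 2 of 10 intestine and 2 of 10 body wall muscle markers, with 3, 3 and 1 higher. Of all genes, 23.5% were lower and 25.8% higher. In triple-labelled libraries against daf-2, 11 of 12 sperm and 10 of 12 neuron markers were higher, and 10 of 12 oocyte and 6 of 12 germline markers lower. Intestine had 5 of 10 higher and 2 lower, epidermis 1 of 10 higher and 2 lower, and body wall muscle 1 of 10 higher. Of all genes, 20.9% were lower and 26.1% higher. In spr-4;spr-3 against N2, 9 of 12 sperm, 6 of 12 oocyte, 6 of 10 intestine and 5 of 10 epidermis markers were lower, with 1, 2, 1 and 3 higher in the same order. Germline had 3 of 12 lower and 1 higher, neuron 2 of 12 lower and 5 higher, and body wall muscle 1 of 10 lower. Of all genes, 21.9% were lower and 24.6% higher. The part of these markers in the autophagy results was not tested.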

How the data were processed

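Whole-worm RNA was measured in 12 libraries. A stranded mRNA kit was given 500 ng of RNA for each library, with paired reads of 75 bases, per the labels' protocols. Per the submitters' processing notes, STAR, featureCounts 1.5.1 and WBcel235 were used. These notes do not name the strand setting or how reads with several matches were treated. The table deposited by the authors holds raw whole-number counts for each gene. All 12 columns were matched to samples by name, with 0 other sample columns.

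Gene names, exon lengths and overlaps came from Ensembl release 115 of WBcel235. The count model was that of edgeR 4.0.16, run in R 4.3.3, with filterByExpr at a minimum count of 10, TMM scaling and a robust quasi-likelihood fit of all 12 libraries (8 residual degrees of freedom), with 5 two-sided contrasts and Benjamini-Hochberg adjustment over 15764 genes. Standard errors come from the size of the log2 fold change over the root of its F statistic. The scripts were tested on simulated data.

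No replicates of a genotype matched within sampling noise, since their chi-square over its degrees of freedom was 3.40 to 16.5. Libraries with the same replicate number did not deviate together (median correlation 0.00033 over 18 pairs, 1 over 0.1), so numbers were not used as pairs. Values in every library are given for members called with an absolute log2 fold change of at least 0.5, and for lgg-1, bec-1 and sqst-1; of other lists, up to 3 called genes by size in daf-2 against N2, and mxl-3, nuc-1, hlh-30 and let-363 were described further after their values were seen. Members and lists were chosen with earlier results of these data known. Alternatives were RLE and total-count scaling, other filters, DESeq2 1.42.0, limma-voom 3.58.1, a replicate block, a fit of the compared groups alone, a 1.5-fold change as the null and leaving out each library. Leaving out all triple-labelled or all daf-2 libraries was added after seeing the data.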

Additional observations from a re-analysis of the deposited data

Results flagged for a closer look

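For 7 genes the log2 effect of the daf-2 label differed between spr double mutant (spr-4;spr-3) and N2 worms by the interaction test (edgeR, adjusted over all genes, n = 3 libraries per genotype). The difference was -1.40 for epg-2, -0.668 for rab-7, -0.482 for atg-4.2, -0.315 for atg-16.2 and -0.171 for atg-7, where the daf-2 effect was lower in spr double mutant worms. It was 0.326 for epg-3 and 0.248 for vps-34, where the daf-2 effect was higher in spr double mutant worms. Since spr-3 was 0.83 higher in triple-labelled than in spr-4;spr-3 libraries, a difference in spr genotype cannot be told apart from these effects. The atg-7 difference (adjusted p = 0.048) was lost under DESeq2 (0.076), limma-voom (0.057) and each scaling and filter alternative. It was also lost without triple-labelled replicate 2 or 3 (0.10 and 0.11), daf-2 replicate 2 or 3 (0.067 and 0.081), spr-4;spr-3 replicate 1 or 2 (0.11 and 0.055), or N2 replicate 1 or 2 (0.12 and 0.094). atg-16.2 lost it with total counts (0.071), and the remaining 5 kept it in every alternative run other than the test against a 1.5-fold change, which only epg-2 passed.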

How the results depend on the processing

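Of 58 calls over the 30 genes and 5 contrasts, 46 remained whichever library was left out, and none reversed in any alternative. Leaving out 1 library gave 16 to 21 called autophagy genes in daf-2 against N2, 8 to 15 in triple-labelled against daf-2, 9 to 16 in spr-4;spr-3 against N2, 9 to 11 in triple-labelled against spr-4;spr-3 and 6 to 9 for the interaction. A test against a 1.5-fold change called 3 (sqst-1, epg-2 and rab-7), 1 (rab-7), 0, 1 (sqst-1) and 1 (epg-2) in the same order. Of all 15764 genes it called 2810, 1216, 1135, 1545 and 970. The 0, from edgeR's glmTreat in spr-4;spr-3 against N2, was also 0 at an unadjusted p below 0.05. The plain test by limma-voom called 13 there, but against a null of no change. Total counts gave 14 calls in triple-labelled against spr-4;spr-3, where 9 were called, and the cause was not tested. With the replicate block the counts were 18, 12, 13, 12 and 6, and the calls lost were epg-6 in spr-4;spr-3 against N2 (edgeR adjusted p = 0.061) and atg-7 in the interaction (0.065). Without the triple-labelled libraries, daf-2 against N2 kept a count of 18, and without the daf-2 libraries, spr-4;spr-3 against N2 had 16. Total counts also ended the calls of atg-16.1 and atg-4.1 in daf-2 against N2 (edgeR adjusted p = 0.065 and 0.059), of epg-8 in triple-labelled against daf-2 (0.070) and of unc-51, bec-1 and lgg-3 in spr-4;spr-3 against N2 (0.27, 0.56 and 0.44).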
